A study of Mus musculus with 8 samples.

Results

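The genes described here are 32 genes of B cell development, from the transcription factors that commit a progenitor to the lineage to the receptors of mature B cells. They were chosen by symbol, all 32 have a row among the 27133 genes of the deposited count table, and all 32 passed the filter on low counts that left 17028 genes for testing. Their RNA was measured in 8 bulk libraries of parietal bone, a flat bone of the skull roof, from C57BL6J mouse pups, for which the labels name no transgene. The 4 isotype libraries, numbered 2, 3, 4 and 5, came from pups given a control antibody, and the 4 anti-CSF1R libraries, numbered 7, 8, 9 and 10, from pups whose antibody blocked CSF1R, on which macrophages and osteoclasts depend for survival. Both groups received transcranial doses on postnatal days 2, 4 and 6, followed by perfusion and collection on postnatal day 9. The stated aim of the antibody was to remove myeloid cells, and the comparison asks what else in the bone differed after it. The whole bone was homogenised, so every value is an average over bone, marrow and attached tissue, and fewer B lineage cells cannot be told apart from less RNA per cell. The labels name the bone and not its marrow. Nor do they state whether 1 pup gave 1 library, so the tests measure only the spread among the libraries, which may be technical.

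B cells are made in the marrow in an ordered series of steps. E2A (Tcf3), EBF1 and PAX5 switch on the B lineage genes, RAG1 and RAG2 cut the immunoglobulin genes so that they can be rejoined, and IL-7 drives the pro-B cells to divide. A first heavy chain is tested at the surface with a stand-in light chain, the surrogate light chain made of VpreB and lambda5 (Igll1), and cells that pass rearrange a true light chain, carry the B cell receptor and leave for the spleen. B cell precursors rest on stromal cells that make IL-7 and CXCL12, and several of their genes are also used by macrophages, dendritic cells or T cells.

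Levels are in CPM, counts scaled to a common library size after TMM normalisation, and differences are log2 fold changes, anti-CSF1R over isotype, with a 95% confidence interval where given. Values of single libraries follow the order isotype 2, 3, 4, 5 and anti-CSF1R 7, 8, 9, 10. Library totals ranged from 57496279 to 69118931 counts, in which both mates of most pairs were counted, and 3 counts corresponded to 0.0396 to 0.0573 CPM. Csf1r itself stood at 237.6, 549.2, 420.6 and 238 CPM in the isotype libraries and at 64.4, 61.4, 62.6 and 39.4 CPM in the anti-CSF1R libraries, which is -2.66 ± 0.32 on the log2 scale (SE, edgeR adjusted p = 0.0156). Leaving out any 1 of the anti-CSF1R libraries took the adjusted p of Csf1r above 0.05, to at most 0.0812. B lineage RNA was present in every library: Cd79a, a chain of the B cell receptor, ranged from 4.23 to 13.1 CPM and Pax5 from 2.98 to 8.11 CPM. Summed over 10 T and NK cell markers, of which 6 passed the filter, the level was 2.24 to 4.85 CPM, with Cd3e at 0 to 0.141 CPM. Isotype 3 and 4 stand apart from isotype 2 and 5, and anti-CSF1R 10 from anti-CSF1R 7, 8 and 9, as described below, so results are also given against isotype 2 and 5 alone. The labels do not separate these libraries, and the split was taken from their values. Leaving out isotype 3 and 4 also removes their spread, so an adjusted p against isotype 2 and 5 alone describes a chosen subset and is not a second test.

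None of the 32 genes passed an adjusted p of 0.05 in either direction (edgeR's quasi-likelihood test, Benjamini-Hochberg adjustment over all genes tested). Of all genes tested, 0.822% were lower and 0.0235% higher in the anti-CSF1R libraries at that threshold. At an unadjusted p under 0.05, 6 of the 32 were lower (Blnk, Cd72, Cd37, Cd79b, Vpreb1 and Cd22), against 12.6% of all genes, and 2 were higher (Bcl11a and Ebf1), against 5.26%. The groups did not overlap for 3 genes that were lower, Blnk, Cd72 and Cd37, and for 2 that were higher, Ebf1 and Bcl11a. Over all genes tested, 8.34% did not overlap and were lower and 6.61% did not overlap and were higher. DESeq2 called 2 of the 32 lower, Blnk and Cd72, and none higher, where it called 3.69% of all genes lower and 0.869% higher. Limma-voom called none of the 32, beside 0.652% of all genes lower and 0.0294% higher. At an unadjusted p under 0.05 it had 4 of the 32 lower and 2 higher, beside 8.46% and 10.9% of all genes. Without isotype 2, edgeR called Blnk and Cd72 lower and none of the 32 higher, beside 1.42% and 0.0871% of all genes. The median log2 fold change of the 32 was -0.21, beside 0.031 over all genes, and against isotype 2 and 5 alone it was -0.0058, beside 0.0028. The median of the 32 was -0.36 without isotype 2, -0.33 without anti-CSF1R 9 and -0.12 without anti-CSF1R 10, and -0.042 with library size alone, where that of all genes was 0.19. Against isotype 2 and 5 alone none of the 32 was called, where 2.38% of all genes were called lower and 0.679% higher.

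**Figure D1:**
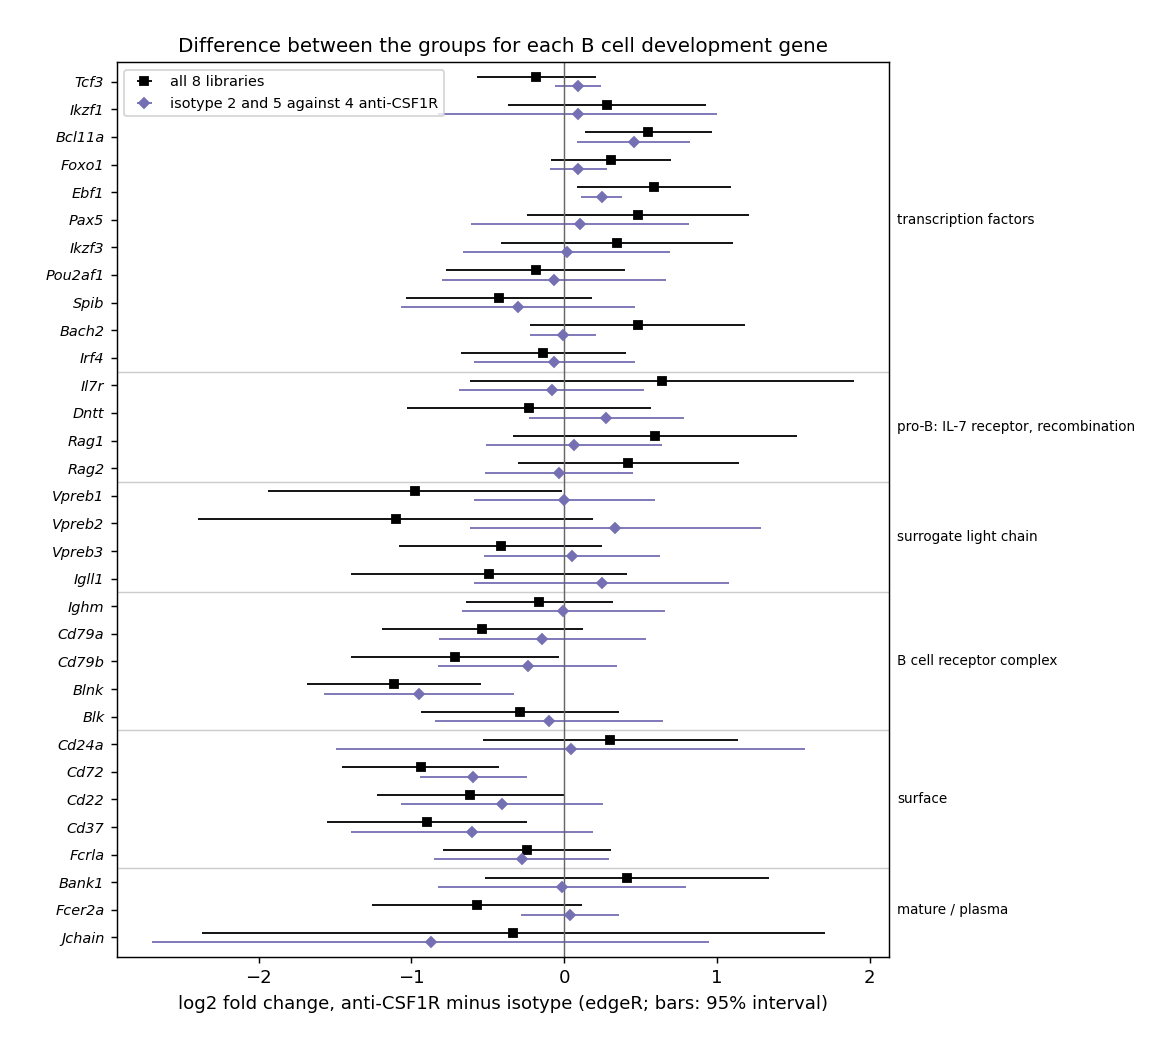
Log2 fold change of each of the 32 genes, anti-CSF1R over isotype, ordered by stage, with 95% confidence intervals, from all 8 libraries and against isotype 2 and 5 alone. The 4 surrogate light chain genes lie below 0 against all isotype libraries and at or above 0 against isotype 2 and 5, whereas Blnk and Cd72 lie below 0 in both.

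The transcription factors, 11 genes, had 7 values above isotype and 4 below. Ebf1, which opens the B lineage programme and is also expressed by bone stromal cells, stood at 41.3, 26.1, 21.1 and 40.1 CPM in the isotype libraries and at 47.9, 46.0, 50.6 and 48.8 CPM in the anti-CSF1R libraries. All 4 anti-CSF1R values lay above all isotype values, but isotype 2 and 5 came close to them, and isotype 3 and 4 were far lower. Ebf1 had a log2 fold change of 0.59 (0.085 to 1.09, edgeR adjusted p = 0.278), and 0.25 against isotype 2 and 5 alone (edgeR adjusted p = 0.0621, and 0.0621 to 0.887 over the 18 alternatives). The summed level of the 6 stromal markers moved with Ebf1, at 3318, 1417, 1257 and 2634 CPM in the isotype libraries and 3072 to 3182 CPM in the anti-CSF1R libraries, and its part in the result was not tested.

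Bcl11a, needed for early lymphoid progenitors and also used by plasmacytoid dendritic cells, stood at 4.18, 3.67, 2.74 and 3.17 CPM in the isotype libraries and at 4.53, 5.52, 5.39 and 4.69 CPM in the anti-CSF1R libraries. The groups did not overlap, with isotype 2 just below anti-CSF1R 7. Its log2 fold change was 0.55 (0.13 to 0.97, edgeR adjusted p = 0.257) and 0.45 against isotype 2 and 5 alone (edgeR adjusted p = 0.216, and 0.102 to 0.931 over the alternatives). With a correction for GC content and gene length the values of Bcl11a and Ebf1 were -0.038 and -0.034.

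Pax5, which fixes B cell identity, stood at 3.99, 2.98, 3.17 and 7.34 CPM in the isotype libraries and at 5.24, 6.59, 8.11 and 4.49 CPM in the anti-CSF1R libraries. The highest isotype library lay inside the anti-CSF1R range, and the log2 fold change of 0.48 had an interval of -0.25 to 1.21. Tcf3, which encodes the E2A proteins and is used by many cell types, had the highest level of the 32, at 100.2 to 161.8 CPM in isotype and 107.5 to 120.2 CPM in anti-CSF1R libraries. Foxo1, which acts with E2A and EBF1 on the Rag genes, ranged from 27.1 to 43.6 CPM in isotype and from 41.3 to 51.0 CPM in anti-CSF1R libraries, so that isotype 5 reached into the other group.

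The remaining factors overlapped between the groups, each with an interval that spanned 0. Bach2, a repressor that holds back plasma cell genes, had a low pair, isotype 3 (5.46 CPM) and isotype 4 (6.18 CPM), and a range of 12.5 to 15.3 CPM in the other 6 libraries. Ikzf1 and Ikzf3, which encode Ikaros and Aiolos, had log2 fold changes of 0.28 and 0.34. Pou2af1, a coactivator of immunoglobulin genes, was at -0.19, and Spib, an ETS factor shared with plasmacytoid dendritic cells, at -0.43. Irf4, which acts at the light chain step and in plasma cells and is also expressed by macrophages, was at -0.14.

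The pro-B cell genes, 4 in number, were all low and did not separate the groups. Il7r, the IL-7 receptor chain, stood at 1.76, 0.382, 0.627 and 3.11 CPM in the isotype libraries and at 1.96, 2.17, 3.06 and 2.05 CPM in the anti-CSF1R libraries. Isotype held both the lowest 2 values, in isotype 3 and 4, and the highest, in isotype 5. Il7r differed by 0.64 on the log2 scale (-0.62 to 1.90), and -0.082 (-0.69 to 0.52) against isotype 2 and 5 alone.

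Rag1 stood at 3.32, 1.07, 1.92 and 4.52 CPM in the isotype libraries and at 3.91, 5.48, 4.24 and 2.77 CPM in the anti-CSF1R libraries, with isotype 3 and 4 again the lowest. Its log2 fold change was 0.60 against all isotype libraries and 0.064 (-0.51 to 0.64) against isotype 2 and 5. Rag2 ranged from 0.611 to 1.52 CPM in isotype and from 1.30 to 1.73 CPM in anti-CSF1R libraries. Dntt, the enzyme that adds bases without a template at the joints, was highest in isotype 4 at 6.21 CPM and lay between 2.04 and 3.54 CPM in the other 7 libraries. The annotation gives Rag1 an exon overlap of 80 bases with another protein-coding gene on the same strand. Rag2 shares 208 bases with that gene on the other strand, and the strand setting of the counting is not given in the sources used here.

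The surrogate light chain genes, 4 in number, spread widely inside the isotype group. Vpreb1 and Vpreb2 are near copies: their coding sequences are 429 bases each, differ at 9 bases and are 97.9% identical, while Vpreb1 and Vpreb3 are 48.6% identical. The coding bases 238 to 387 of both, read from the GENCODE transcripts, are printed to show how few bases separate them, with the 6 bases that differ in capitals.
Vpreb1: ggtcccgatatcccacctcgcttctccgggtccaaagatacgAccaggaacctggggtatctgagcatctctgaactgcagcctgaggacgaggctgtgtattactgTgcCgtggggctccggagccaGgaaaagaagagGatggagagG
Vpreb2: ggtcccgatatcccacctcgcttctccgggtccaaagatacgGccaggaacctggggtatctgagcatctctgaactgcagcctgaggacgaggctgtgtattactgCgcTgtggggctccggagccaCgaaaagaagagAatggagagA
Of the 666 windows of 101 bases, 1 read length, in the Vpreb1 transcript, 96 (14.4%) occur unchanged in Vpreb2, so the split of counts between them is uncertain. Exons of Vpreb1 also share 108 bases with Top3b on the other strand, which stood at 49.9 to 59.5 CPM over the 8 libraries. With the strand setting not given, an unknown part of the Vpreb1 counts may be reads of Top3b.

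Vpreb1 stood at 2.01, 6.45, 6.29 and 2.30 CPM in the isotype libraries and at 2.72, 2.62, 1.85 and 1.45 CPM in the anti-CSF1R libraries. Isotype 3 and 4 were far above every other library, and isotype 2 and 5 lay inside the anti-CSF1R range. Against all isotype libraries Vpreb1 differed by -0.98 (-1.94 to -0.017, edgeR adjusted p = 0.278) on the log2 scale, and against isotype 2 and 5 by 0.00085 (-0.59 to 0.59).

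Igll1, the lambda5 gene, stood at 3.51, 9.85, 7.83 and 4.04 CPM in the isotype libraries and at 5.75, 5.04, 4.96 and 2.15 CPM in the anti-CSF1R libraries. As for Vpreb1, isotype 3 and 4 were highest and anti-CSF1R 10 was lowest. Igll1 had a log2 fold change of -0.49 (-1.40 to 0.41), and of 0.25 (-0.59 to 1.08) against isotype 2 and 5 alone. Vpreb2 was low, at 0.255 to 1.53 CPM in isotype and 0.231 to 0.490 CPM in anti-CSF1R libraries, with a log2 difference of -1.10 (edgeR adjusted p = 0.290) and of 0.34 against isotype 2 and 5 alone. Vpreb3, which encodes a VpreB relative that binds new immunoglobulin chains, ranged from 2.43 to 4.92 and from 1.75 to 3.29 CPM. For all 4 genes isotype 3 and 4 were both above isotype 2 and 5, as in 37.5% of all genes tested. Anti-CSF1R 10 was the lowest of the 8 libraries for all 4, as for 2152 of the 17028 genes tested. The median log2 fold change of the 4 was -0.73 against all isotype libraries and 0.15 against isotype 2 and 5.

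Vpreb1 and Igll1 lie near each other on chromosome 16, both were highest in isotype 3 and 4, and both are textbook targets of E2A and EBF1, so the 250 bases before their starts are shown (RefSeq, GRCm38.p6, minus strand, 5′ to 3′ of the gene). Capitals mark the E2A-type E-box, spelled CAGCTG or, with other centre letters, CAGGTG, then the EBF core CCCNNGGG, and the PU.1 core, spelled GAGGAA. All were searched on both strands, so a capital run may show the reverse complement.
Vpreb1, chr16:16869256-16869505: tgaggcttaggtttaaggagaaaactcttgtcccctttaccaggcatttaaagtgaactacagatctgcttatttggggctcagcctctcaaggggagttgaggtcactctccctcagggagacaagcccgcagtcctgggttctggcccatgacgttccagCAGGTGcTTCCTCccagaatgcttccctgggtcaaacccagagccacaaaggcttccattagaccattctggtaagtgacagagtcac
Igll1, chr16:16863986-16864235: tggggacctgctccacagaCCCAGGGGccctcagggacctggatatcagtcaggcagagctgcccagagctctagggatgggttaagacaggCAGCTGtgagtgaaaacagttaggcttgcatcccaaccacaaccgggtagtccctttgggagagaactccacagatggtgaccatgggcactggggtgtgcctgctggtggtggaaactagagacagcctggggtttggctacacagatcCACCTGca
The Vpreb1 window holds an E-box 88 bases and a PU.1 core 81 bases before the start, and the Igll1 window holds the EBF core at 231 bases and E-boxes at 158 and 8 bases. Of 32851 promoter windows of this length, 27.7% hold such an E-box, 11.8% the EBF core and 23.3% the PU.1 core. At least 1 window was found for 27 of the 32 genes, of which 11 hold the E-box in any of their windows, 6 the EBF core and 9 the PU.1 core. A gene may have several windows, so these counts cannot be set against the shares of single windows. These are matches of letters, not measured binding.

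Of the 5 genes of the B cell receptor and its signalling, Blnk had the largest fold change in size. BLNK is the adaptor that links the activated receptor to its downstream enzymes, and macrophages use it too. Blnk stood at 6.64, 12.1, 9.77 and 11.03 CPM in the isotype libraries and at 4.22, 5.28, 5.65 and 3.14 CPM in the anti-CSF1R libraries. The groups did not overlap, and isotype 2 was the isotype library nearest to the other group. Blnk had a log2 fold change of -1.11 (-1.68 to -0.54, edgeR adjusted p = 0.0912), close in size to the -1.10 (-2.40 to 0.19) of Vpreb2. Blnk was at -0.95 against isotype 2 and 5 alone (edgeR adjusted p = 0.127), and -1.29 without isotype 2 (edgeR adjusted p = 0.0413), which passes the threshold. The DESeq2 adjusted p was 0.00121, and over all 18 alternatives the adjusted p of Blnk ran from there to 0.279.

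Cd79a and Cd79b, the signalling chains of the receptor, overlapped between the groups. Cd79a stood at 5.86, 13.1, 11.2 and 9.09 CPM in the isotype libraries and at 7.06, 7.33, 8.495 and 4.23 CPM in the anti-CSF1R libraries, giving a log2 difference of -0.54 (-1.19 to 0.12). Cd79b stood at 4.95, 11.2, 9.44 and 6.59 CPM and at 5.95, 5.28, 5.31 and 3.00 CPM in the same order, with a log2 difference of -0.72 (-1.40 to -0.035, edgeR adjusted p = 0.278). In both genes isotype 2 lay within the anti-CSF1R range, and against isotype 2 and 5 alone the values were -0.14 and -0.24. Ighm, the heavy chain constant gene of IgM, was the second highest of the 32 per kilobase and varied from 37.8 to 67.6 CPM in isotype and from 39.5 to 61.6 CPM in anti-CSF1R libraries, with a log2 difference of -0.16 (-0.65 to 0.32). Blk, a B cell kinase of the Src family, was at -0.29 (-0.94 to 0.36).

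Among the 5 surface genes, Cd72 and Cd37 did not overlap between the groups. Cd72, an inhibitory coreceptor of B cells that macrophages also carry, stood at 10.04, 19.4, 15.8 and 12.8 CPM in the isotype libraries and at 7.78, 7.98, 8.58 and 5.89 CPM in the anti-CSF1R libraries. Cd72 had a log2 fold change of -0.94 (-1.45 to -0.42, edgeR adjusted p = 0.117) and -0.59 against isotype 2 and 5 alone (edgeR adjusted p = 0.0843). Without isotype 2 it was -1.11 (edgeR adjusted p = 0.0453), and the DESeq2 adjusted p was 0.00517, the lowest of a range over the alternatives that reached 0.344. Exons of Cd72 share 1423 bases with Tesk1 on the other strand. Tesk1 ran the same way, at 47.6, 96.1, 69.8 and 45.9 CPM in the isotype libraries and 38.9 to 43.4 CPM in the anti-CSF1R libraries, with a log2 difference of -0.65 (edgeR adjusted p = 0.277). Without the strand setting, reads of the shared stretch cannot be told apart between the 2 genes.

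Cd72 is the gene with the lowest adjusted p beside Blnk, and its 250 upstream bases are shown for the letters of the PU.1 core, the site of a factor that macrophages and B cells both use (RefSeq, GRCm38.p6, minus strand, core in capitals).
Cd72, chr4:43454627-43454876: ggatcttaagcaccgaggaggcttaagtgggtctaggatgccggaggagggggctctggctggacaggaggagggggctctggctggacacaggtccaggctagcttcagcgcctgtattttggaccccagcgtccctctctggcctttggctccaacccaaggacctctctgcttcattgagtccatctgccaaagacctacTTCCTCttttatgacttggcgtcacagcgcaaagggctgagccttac
The core lies 47 bases before the start. Of all single promoter windows, 23.3% hold such a core. Of the 27 genes with a window, 9 hold it in at least 1 window: Ebf1, Irf4, Rag2, Vpreb1, Vpreb2, Cd79a, Cd72, Cd37 and Fcrla, but not Blnk. As above, this count cannot be set against the share of single windows. The core is a match of letters, not measured binding.

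Cd37, a tetraspanin of B cells that myeloid cells share, stood at 9.29, 18.3, 14.7 and 13.4 CPM in the isotype libraries and at 7.91, 8.89, 8.97 and 4.13 CPM in the anti-CSF1R libraries. Isotype 2 lay only just above anti-CSF1R 9, and the log2 fold change was -0.90 (-1.55 to -0.24, edgeR adjusted p = 0.245). Cd22, an inhibitory lectin of B cells, ranged from 1.596 to 2.74 CPM in isotype and from 0.957 to 2.05 CPM in anti-CSF1R libraries, giving a log2 difference of -0.61 (edgeR adjusted p = 0.278). Fcrla, an intracellular Fc receptor relative of B cells, was at -0.24. Cd24a, which red cell precursors and neutrophils carry as well, varied from 19.0 CPM in anti-CSF1R 10 to 74.3 CPM in anti-CSF1R 8, a wider range than the isotype libraries spanned (30.3 to 52.1 CPM).

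The 3 genes of mature B and plasma cells did not separate the groups. Fcer2a, which encodes CD23, stood at 5.04, 12.7, 7.88 and 4.93 CPM in the isotype libraries and at 4.59 to 5.67 CPM in the anti-CSF1R libraries, with log2 fold changes of -0.57 against all isotype libraries and 0.038 against isotype 2 and 5. Bank1, a scaffold of receptor signalling, was at 0.264 to 0.905 and 0.462 to 1.15 CPM. Jchain, which joins secreted IgM and IgA, reached at most 0.287 CPM and had no count in isotype 3 and anti-CSF1R 7, where 0 counts allow up to 3 counts.

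**Figure D2:**
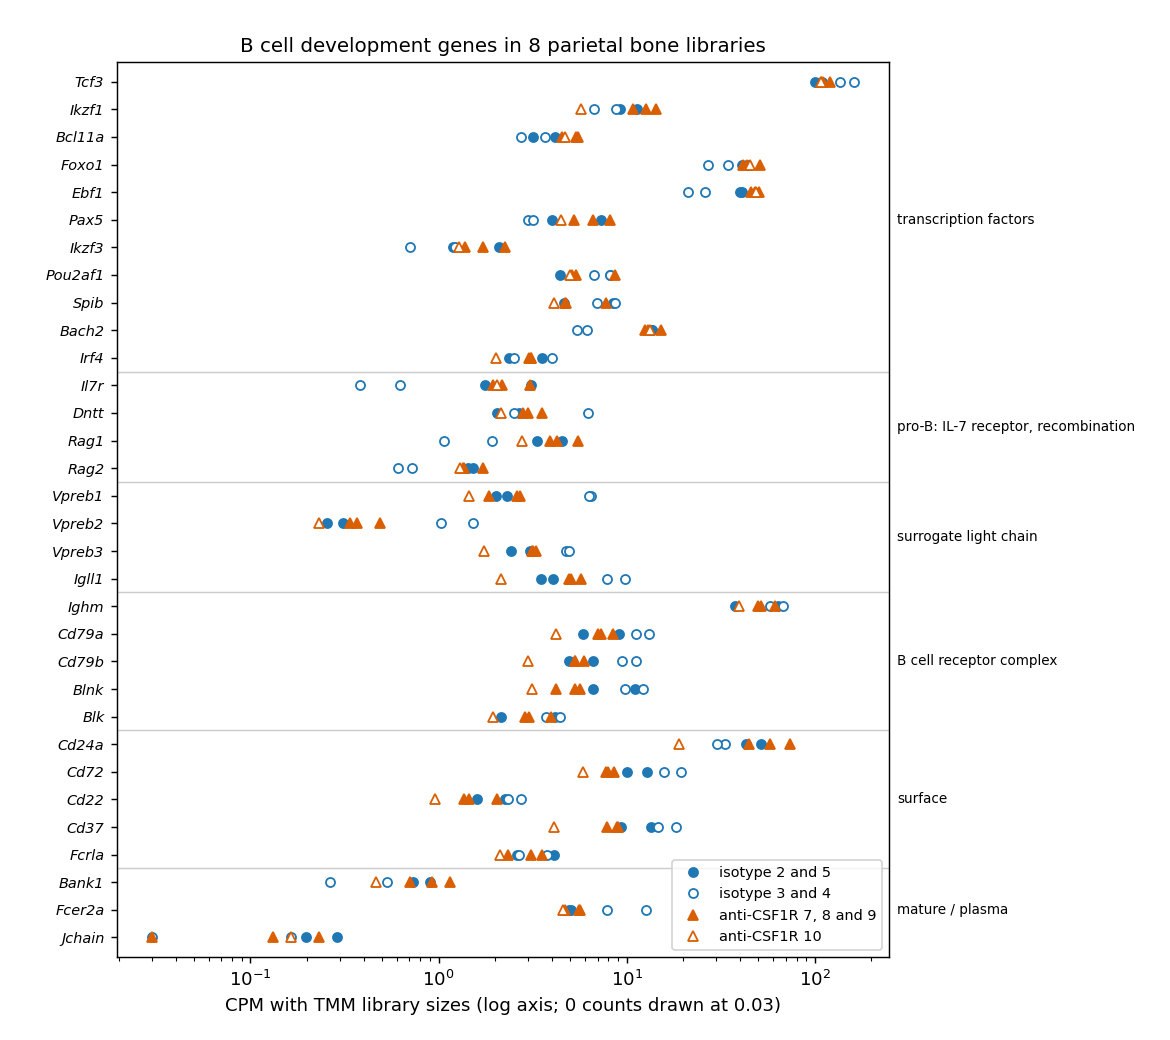
Level of each of the 32 genes in each of the 8 libraries in CPM on a log axis, by stage, with circles for isotype (open for isotype 3 and 4) and triangles for anti-CSF1R (open for anti-CSF1R 10). Isotype 3 and 4 are high for the surrogate light chain genes and low for the pro-B genes Il7r, Rag1 and Rag2, and anti-CSF1R 10 is low for most genes of the receptor and surface groups.

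Per kilobase of transcript, the scale on which genes can be compared, the mean isotype level of Tcf3 was 42.9 CPM per kb, that of Ighm 33.4 and that of Cd24a 21.9. Igll1 followed at 7.25, Cd79a at 6.75, Cd72 and Cd79b each at 5.61, Vpreb1 at 5.57, Cd37 at 5.48 and Ebf1 at 5.38 CPM per kb. The ranges over the 8 libraries overlapped among the 7 genes from Igll1 to Ebf1, and also among Tcf3, Ighm and Cd24a. The lowest levels were those of Ikzf3 (0.357), Rag2 (0.313), Bank1 (0.187) and Jchain (0.117 CPM per kb), and Il7r (0.415) and Rag1 (0.410) were next above them. The mature light chain gene Igkc stood at 6.36 CPM per kb, inside the range of the surrogate light chain and receptor genes.

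**Figure D3:**
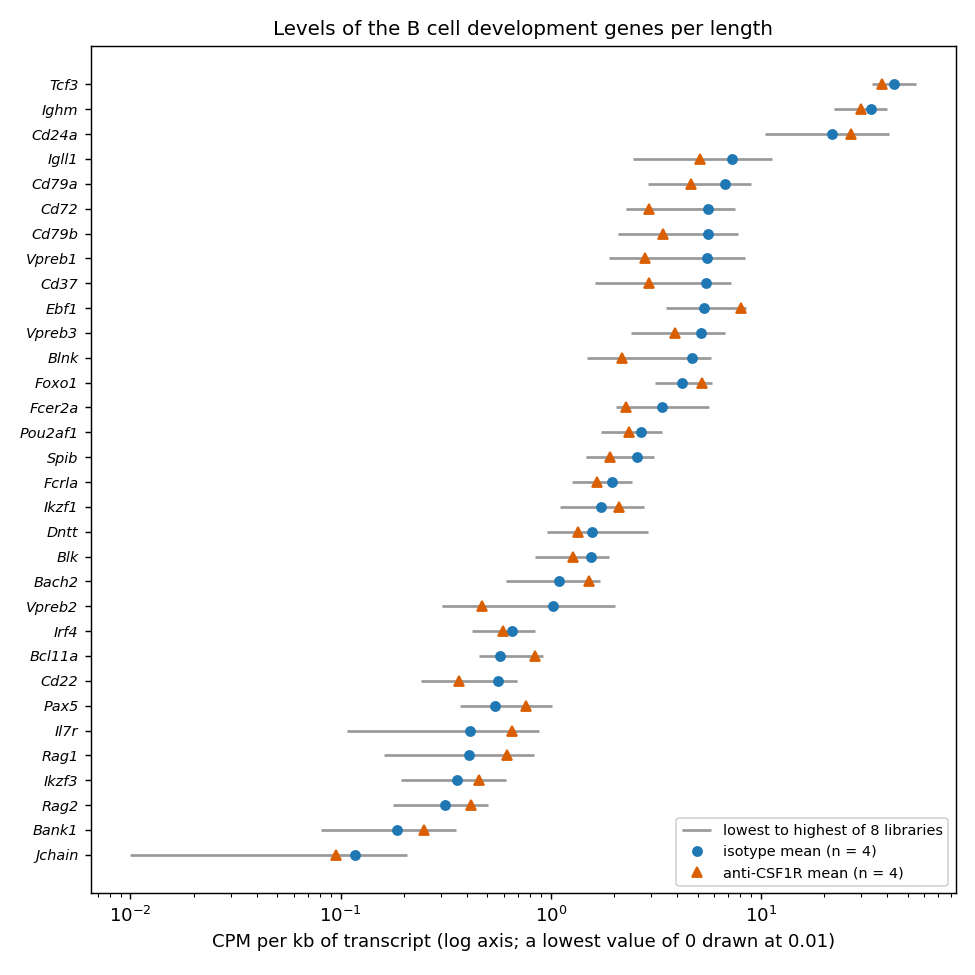
Mean level of each gene in CPM per kb of transcript on a log axis, with circles for the isotype and triangles for the anti-CSF1R mean (n = 4 each) and grey lines from the lowest to the highest of the 8 libraries. Tcf3, Ighm and Cd24a stand above the other genes, and Jchain and Bank1 are lowest.

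The spread inside the isotype group followed the base composition of the genes. Of the 16 genes with over 50% GC, isotype 3 and 4 were both above isotype 2 and 5 in 11 and both below in 1, Pax5. Of the 16 at or under 50% GC they were both above in 0 and both below in 10. Over the 32 genes together they were both above in 34.4% and both below in 34.4%, beside 37.5% and 41.1% of all genes tested. The difference between the means of isotype 3 and 4 and of isotype 2 and 5 was largest upward in Vpreb2 (2.12 on the log2 scale), Vpreb1 (1.56) and Igll1 (1.22), and downward in Jchain (-2.60), Il7r (-2.23) and Rag1 (-1.43). Across the 32 genes it had a Spearman rho of 0.794 with GC content and -0.65 with length, beside 0.703 and -0.378 over 16005 genes tested with annotated GC content and length. Genes are not independent replicates, and these points share the same 4 libraries. Summed markers of other cells also differed between these libraries. In isotype 2, 3, 4 and 5 the osteoclast sum was 5575, 13260, 10220 and 5986 CPM. The sum for red cell precursors was 389, 971, 495 and 326 CPM, and the stromal sum was 3318, 1417, 1257 and 2634 CPM. The part of tissue content in the spread was not tested. The median log2 fold change was -0.55 for the 16 GC-rich genes and 0.33 for the others, and against isotype 2 and 5 alone it was -0.053 and 0.0047.

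**Figure D4:**
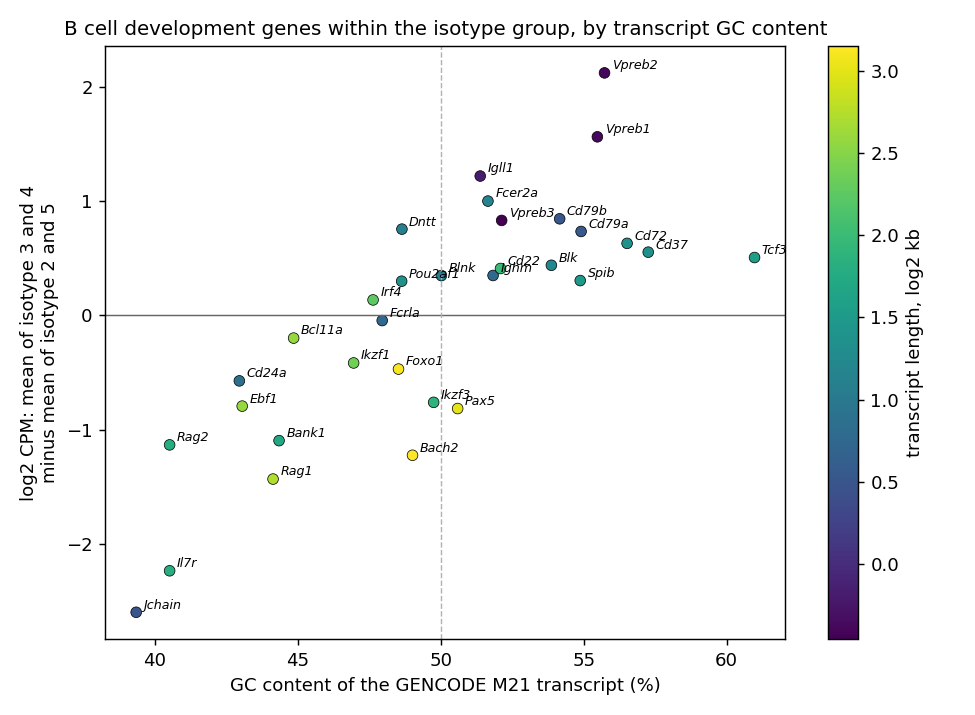
GC content of each gene in percent against the log2 difference between isotype 3 and 4 and isotype 2 and 5, for the 32 genes, coloured by log2 transcript length in kb, with a dashed line at 50% GC. The difference is higher in genes of higher GC content, with Jchain, Il7r and Rag1 at the low end and Vpreb1 and Vpreb2 at the high end.

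With an offset for GC content and length fitted in each library, 2 of the 32 genes, Blnk and Cd72, were lower at an adjusted p of 0.05 and none was higher, where 2.3% of all genes were lower and 0.587% higher. The log2 fold change of Blnk was then -1.02 and that of Cd72 -0.60, each at an edgeR adjusted p of 0.0340. The median of the 32 was -0.11, beside 0.016 over all genes.

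Of the 32 genes, 14 were marked by hand as shared with other cell types, not by overlap with the marker lists. Among them were Ebf1, Foxo1 and Tcf3 with stromal cells, Bcl11a, Spib and Dntt with plasmacytoid dendritic cells, and Il7r and Ikzf3 with T cells. The 5 shared with macrophages, Blnk, Cd72, Cd37, Ikzf1 and Irf4, had a median log2 fold change of -0.90, and -0.59 against isotype 2 and 5. The 18 genes not marked as shared, which need not be exclusive to B cells, had -0.31, and -0.0089 against isotype 2 and 5. The summed level of these 18 was 96.1, 155, 136 and 141 CPM in the isotype libraries and 120, 118, 139 and 89.4 CPM in the anti-CSF1R libraries, so the groups overlapped. Ighm alone gave 37.8 to 67.6 CPM of that sum in the isotype and 39.5 to 61.6 CPM in the anti-CSF1R libraries. The summed level of the 10 macrophage markers was 441, 950, 734 and 469 CPM in the isotype and 124, 121, 131 and 73.3 CPM in the anti-CSF1R libraries, and 8 of the 10 fell (edgeR adjusted p under 0.05). Of the 10, 0 passed without anti-CSF1R 7, 8 or 9 and 3 without anti-CSF1R 10, with all 10 lower at an unadjusted p under 0.05 each time. The macrophage sum, like Blnk, Cd72 and Cd37, was lower in all 4 anti-CSF1R libraries. Ikzf1 (0.28) and Irf4 (-0.14), also among the 5, overlapped between the groups. The part of the macrophage sum in the values of these genes was not tested. The sets of 5 and 18 were chosen with earlier results of these data known, so their medians describe them and are not a test. The -0.90 of the 5 is the value of Cd37.

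In the anti-CSF1R group 1 library set the low end. Anti-CSF1R 10 was the lowest of the 4 for 25 of the 32 genes (78.1%), beside 25.8% of all genes tested. Its median log2 difference from the other 3 was -0.53 over the 32 genes, -0.70 over the 18 not marked as shared and 0.0095 over all genes. Markers of neutrophils (-0.99) and of red cell precursors (-1.25) were low there too, the summed levels being 106 and 257 CPM, beside 149 to 320 and 408 to 683 CPM in anti-CSF1R 7, 8 and 9. Markers of macrophages (-0.99) and osteoclasts (-0.62) were low in anti-CSF1R 10 as well. Those of plasmacytoid dendritic cells were at 0.15 and those of T and NK cells at -0.040. Osteoblast markers were lowest in that library for 0 of 7. When isotype 2 and 5 were compared with anti-CSF1R 7, 8 and 9, a comparison added after the values were seen, the median log2 fold change of the 32 was 0.094.

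**Figure D5:**
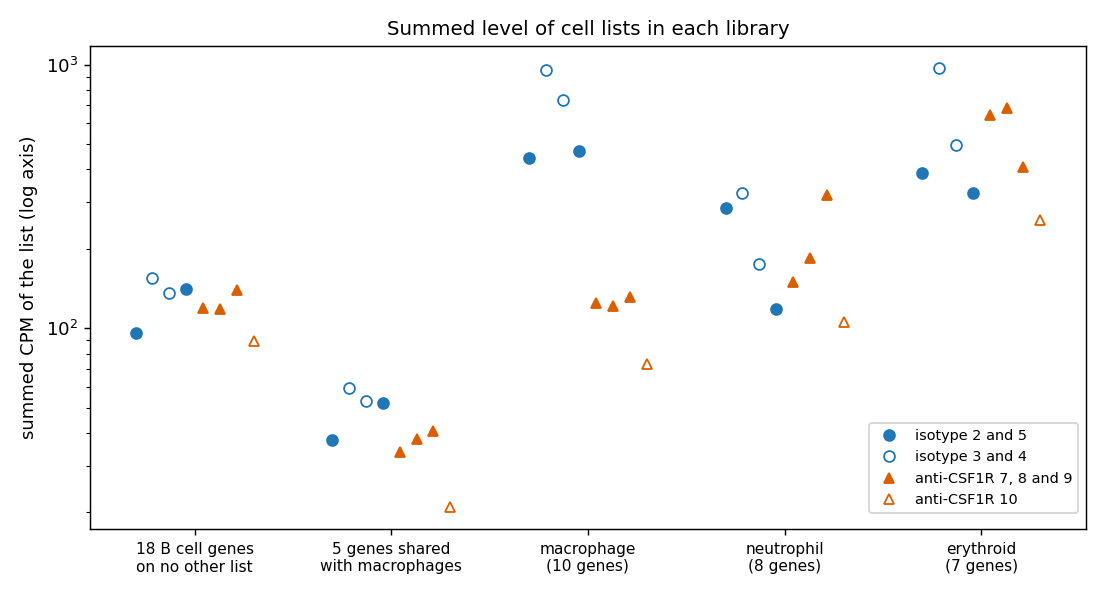
Summed CPM of the 18 genes not marked as shared (labelled as on no other list), the 5 shared with macrophages and 3 marker lists on a log axis, with 1 point for each of the 8 libraries (open symbols: isotype 3 and 4, anti-CSF1R 10). The sum of the 18 genes overlaps between the groups, the macrophage sum does not, and anti-CSF1R 10 is the lowest library of its group for all 5 sums.

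Of 40 other genes of the B lineage, 38 passed the filter, of which 1 fell and 0 rose at the adjusted threshold, beside 0.822% and 0.0235% of all genes. The gene was Syk, the kinase that BLNK works with, which macrophages and osteoclasts also express: it stood at 44.1, 64.3, 67.4 and 41.9 CPM in the isotype libraries and at 24.4, 26.4, 26.1 and 16.7 CPM in the anti-CSF1R libraries. The groups were well apart, and the log2 fold change was -1.22 (edgeR adjusted p = 0.0481, and 5.5e-05 to 0.164 over the alternatives). The adjusted p of Syk passed 0.05 in 8 of the 18 alternatives, not when isotype 3, isotype 4 or any 1 anti-CSF1R library was left out and not against isotype 2 and 5 alone. Nor did it pass with library size alone, limma-voom or a filter of 1 CPM. Among markers held by B cells more strictly, Ms4a1, which encodes CD20, was at 0.198 to 1.88 and 0.825 to 2.28 CPM in the isotype and anti-CSF1R libraries, and Igkc at 2.74 to 4.73 and 1.54 to 3.23 CPM. Prdm1, which encodes the plasma cell factor BLIMP1 that other cells use too, stood at 24.5, 12.9, 14.4 and 27.2 CPM in the isotype and 9.29 to 10.9 CPM in the anti-CSF1R libraries. The groups of Prdm1 did not overlap, as for 8.34% of all genes on the lower side, and isotype 2 and 5 were highest. The log2 fold change of Prdm1 was -0.95 (edgeR adjusted p = 0.156). It was -1.34 (edgeR adjusted p = 1.81e-04) against isotype 2 and 5 alone, a subset chosen from the values. Prdm1 passed 0.05 in 4 of the 18 alternatives, over which its adjusted p ran from 4.716e-05 to 0.428. Among these 4, DESeq2 kept all 8 libraries and gave -0.97 (DESeq2 adjusted p = 0.00744). So did edgeR once corrected for base composition and gene length, at -1.285 (adjusted p = 5.571e-04). The median log2 fold change of the 38 was -0.11, beside 0.031 over all genes.

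Of the 9 genes through which the marrow niche and B cell precursors signal to each other, 0 passed the adjusted threshold in edgeR. At an unadjusted p under 0.05, 1 was lower and 0 higher, beside 12.6% and 5.26% of all genes. Cxcr4, the receptor for CXCL12 that many blood cells carry, stood at 13.7, 17.3, 17.1 and 13.3 CPM in the isotype libraries and at 9.46, 9.51, 8.94 and 7.73 CPM in the anti-CSF1R libraries. The groups did not overlap, as for 8.34% of all genes on the lower side. The log2 fold change of Cxcr4 was -0.78 (edgeR adjusted p = 0.0690), and -0.60 (edgeR adjusted p = 0.0165) against isotype 2 and 5 alone, with 0.000238 to 0.266 over the alternatives. Its ligand gene Cxcl12 was at 180.5, 310.2, 232.3 and 179.6 CPM in isotype and 281, 345.5, 319.1 and 281.6 CPM in anti-CSF1R libraries, with a log2 difference of 0.44 (edgeR adjusted p = 0.279), and 0.77 (edgeR adjusted p = 0.00258) against isotype 2 and 5, with 0.0015 to 0.486 over the alternatives. Isotype 3 lay inside the anti-CSF1R range of Cxcl12 and the other 3 isotype libraries below it. Il7 was at 1.53, 0.477, 0.231 and 1.03 CPM in isotype and 0.949 to 1.43 CPM in anti-CSF1R libraries, with isotype 3 and 4 lowest as for Il7r.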

How the data were processed

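Per the labels' protocols, RNA of homogenised parietal bone (1 µg) entered the TruSeq Stranded mRNA kit and was sequenced as paired 101 bp reads. The deposited values are raw counts per gene, for which the submitters' processing notes name STAR 2.7.10b and featureCounts 1.6.3 with the builds GRCm38 and GRCm39. The role of each build is not stated there, and the strand setting is not given in the sources used here. Small counts were even in 82.8 to 84.7% of cases, so both mates were mostly counted.

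Counts were filtered (filterByExpr), TMM-scaled and fitted with edgeR 4.0.16 (robust quasi-likelihood, all 8 libraries, no covariates, R 4.3.3), with Benjamini-Hochberg adjustment over 17028 genes and a threshold of 0.05. No libraries were alike enough to be 1 library deposited more than once. GC content, length and exon overlaps came from GENCODE M21, promoter windows from RefSeq. Alternatives, 17 planned and 1 added after the values were seen, covered scaling, filters, DESeq2 1.42.0, limma 3.58.1, left-out libraries, isotype 2 and 5 alone, halved counts, and a GC and length offset for the 94% of tested genes with both. The edgeR step was tested on simulated data. The 32 genes and all lists were chosen with earlier results of these data known. The text names all 32, and of the other lists each gene past the threshold, some of the highest, and others such as Ms4a1, Igkc, Prdm1, Cd3e, Cxcr4, Il7 and Tesk1 after their values were seen.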

Additional observations from a re-analysis of the deposited data

Results flagged for a closer look

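In each group of 4 libraries the highest and lowest values were compared with the rest for the 32 genes and the summed marker lists. Of 88 groups examined, 7 held a library far from the other 3 by Dixon's ratio, where chance gives about 4.4 (1 in 20). Pou2af1 was at 8.63 CPM in anti-CSF1R 9, beside 4.99 to 5.37 CPM in the other anti-CSF1R libraries. Irf4 was at 2.01 CPM in anti-CSF1R 10, beside 3.04 to 3.12 CPM. Vpreb3 was also low in anti-CSF1R 10, at 1.75 CPM beside 3.15 to 3.29 CPM. Rag2 was at 1.73 CPM in anti-CSF1R 7, beside 1.30 to 1.37 CPM. Dntt was at 6.21 CPM in isotype 4, beside 2.04 to 2.69 CPM in the other isotype libraries. The summed level of the osteoclast markers was 2044 CPM in anti-CSF1R 10, beside 2672 to 2791 CPM, and that of the muscle markers was 4.33 CPM in anti-CSF1R 8, beside 3.67 to 3.76 CPM. The muscle sum varied far more among isotype 2, 3, 4 and 5, at 20.8, 54.2, 3.90 and 3.65 CPM, which the ratio did not flag.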

How the results depend on the processing

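No paired analysis was possible because the 2 groups share no library numbers. Over 18 alternatives the 32 genes gave 572 fold changes, of which 530 kept their direction and side of the threshold, 6 passed it (Blnk and Cd72 with DESeq2, with the GC and length offset and without isotype 2) and 36 reversed, in 21 genes. The members called lower, 0 of 32 as reported, were 2 with DESeq2, 2 with the offset and 0 to 2 without 1 library. Among all genes tested, 140 were lower as reported, 90 with library size alone, 629 with DESeq2, 417 against isotype 2 and 5, 392 with the offset and 364 for isotype 2 and 5 against anti-CSF1R 7, 8 and 9. Those higher were 4 as reported, then 8, 148, 119, 100 and 110 in the same order, and 8 with halved counts. Leaving out 1 library gave 0 to 245 lower and 0 to 41 higher. Without anti-CSF1R 7 or 8 edgeR called 0, with 1275 lower and 628 higher, or 1136 and 461, at an unadjusted p under 0.05; without anti-CSF1R 9, anti-CSF1R 10 and isotype 4 it called 4, 14 and 35 lower. Of the other B lineage genes, 1 was lower as reported, 0 with library size alone, limma-voom or a filter of 1 CPM, 3 with DESeq2, the offset or isotype 2 and 5 against anti-CSF1R 7, 8 and 9, and 0 to 2 without 1 library, and 1 was higher with DESeq2. Library size alone moved the median log2 fold change of all genes from 0.031 to 0.19.

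Reversed log2 fold changes against isotype 2 and 5 were Tcf3 0.0913, Bach2 -0.00623, Il7r -0.0824, Dntt 0.28, Rag2 -0.0355, Vpreb1 0.000852, Vpreb2 0.34, Vpreb3 0.049, Igll1 0.25, Bank1 -0.0116 and Fcer2a 0.0383. With anti-CSF1R 10 also left out they were Tcf3 0.11, Pou2af1 0.0157, Irf4 0.0661, Il7r -0.0275, Dntt 0.39, Vpreb1 0.15, Vpreb2 0.49, Vpreb3 0.22, Igll1 0.48, Ighm 0.0994, Cd79a 0.0279, Blk 0.0545 and Fcer2a 0.0909. With the offset they were Tcf3 0.15, Ikzf1 -0.0655, Bcl11a -0.0377, Ebf1 -0.0338, Rag2 -0.0904, Ighm 0.0689 and Cd24a -0.0938, and with library size alone Irf4 0.0172 and Ighm 0.00369. Without 1 library, Dntt ranged from -0.44 to 0.23 and Jchain from -0.75 to 0.0849. The cause was not tested. A level under 3 counts (0.0396 to 0.0573 CPM) was not detectable at this depth, which limits Jchain.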
